A study of Mus musculus with 24 samples.

Results

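The gene set described here was *Mlxipl*, its dimer partner *Mlx*, its paralog *Mlxip*, and 6 genes known as direct targets of the factor that *Mlxipl* encodes, carbohydrate-responsive element-binding protein (CHREBP). The targets were *Txnip*, *Arrdc4*, *Pklr*, *Klf10*, *Gpd1* and *Khk*. The 9 genes were listed by name, with earlier results of these data known, from a table of 55487 genes, of which 21543 had at least 1 count. All 9 had counts, and all 9 passed the filter on low values in every comparison, which asked for 25 or more counts summed over the libraries compared.

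CHREBP is a basic helix-loop-helix leucine zipper factor through which liver cells respond to sugar. Metabolites of glucose and fructose activate it, it pairs with MLX, and the pair binds carbohydrate response elements, in which 2 E-box-like sequences lie a short distance apart, near genes of glycolysis, fructolysis and fatty acid synthesis. MondoA, the product of *Mlxip*, also pairs with MLX and senses glucose 6-phosphate, most prominently in muscle. *Txnip* and *Arrdc4* encode alpha-arrestins that lower glucose uptake and are known targets of both CHREBP and MondoA.

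Expression was measured in AML-12 cells, an established mouse hepatocyte line, by BRB-seq, which pools barcoded samples and reads the 3′ ends of their mRNAs. There were 24 libraries in 6 groups of 4. BSA cells were given albumin without fatty acid, and PAL cells were given the saturated fatty acid palmitate at 0.25 mM as a model of steatosis. The remaining groups received 0.25 mM palmitate and, on the next day, lipofectamine with an endoribonuclease-prepared siRNA (esiRNA), which is a mixture of short RNAs cut from a long transcript. In CON the esiRNA was directed at *Egfp*, a gene absent from mouse cells, at 200 nM. BMAL1 cells received 100 nM against *Bmal1*, CHREBP cells 100 nM against *Chrebp*, and BOTH cells the esiRNAs against *Bmal1* and *Chrebp* at 200 nM in all. The total esiRNA dose therefore differed between the single esiRNA groups and CON or BOTH. Dose and esiRNA target cannot be told apart in those comparisons or in the interaction described below. All groups were kept without dexamethasone and in charcoal-treated serum, and no group was transfected without palmitate. The libraries of BSA and PAL stood in column 1 of the plate, those of CON and BMAL1 in column 2 and those of CHREBP and BOTH in column 3, so *Chrebp* esiRNA and column cannot be told apart, nor can transfection and column in CON against PAL. Plate rows split PAL, BMAL1 and BOTH from BSA, CON and CHREBP, so row and treatment also cannot be told apart in PAL against BSA, CON against PAL, BMAL1 against CON, BOTH against CON and BOTH against CHREBP.

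Library totals spanned 5399700 to 11237474 gene counts, and 3 counts, the smallest number treated as detectable, equaled 0.267 to 0.556 CPM (counts scaled to the library total). *Arntl*, the gene of BMAL1, was at 16.6 to 30.9 normalized counts in BOTH and 22.3 to 32.9 in BMAL1, against 28.9 to 43.9 in CHREBP and 30.1 to 57.5 in CON. Against CON it fell in BOTH (log2 fold change -0.98, SE 0.28, *Padj* = 0.00994), and in BMAL1 the log2 fold change was -0.78 (SE 0.28), for which DESeq2 gave no *Padj* at this low mean count. The hepatocyte marker *Hnf4a* was at 143 to 189 CPM in all libraries, whereas *Cps1*, *Tat* and *Cyp2e1*, markers of mature hepatocytes, had medians of 0.142, 0.109 and 0.119 CPM. Of 6 bile duct markers, 5 had counts in every library, *Krt19* at 232 to 438 and *Sox9* at 199 to 308 CPM, while *Epcam* had a median of 0 and counts in 6 libraries. Markers of endothelial cells summed to 0 to 0.623 CPM. In transfected cells a score of 16 interferon response genes (the mean of log2 normalized counts + 1) was 10.1 to 10.8 in BOTH and 9.21 to 10.3 in CHREBP, against 4.65 to 7.63 in CON and 4.66 to 5.54 in BMAL1. In BSA and PAL it was 2.98 to 3.89.

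The genes lay on 5 mouse chromosomes (GRCm38, the build of the counts). *Pklr* was at chr3:89136142-89146784 and *Txnip* at chr3:96557957-96561883, while *Khk* (chr5:30921431-30931248), *Mlxip* (chr5:123394798-123457932) and *Mlxipl* (chr5:135089890-135138382) lay on the same chromosome, all 5 on the + strand. *Mlx* (chr11:101087277-101092207) and *Gpd1* (chr15:99717515-99725005) were also on the + strand, and *Arrdc4* (chr7:68736995-68749241) and *Klf10* (chr15:38291463-38300706) on the - strand. All 9 are protein-coding. Exons of a gene on the opposite strand overlapped *Mlxipl*, *Mlx*, *Mlxip*, *Txnip*, *Pklr* and *Gpd1*. For *Txnip* this was the antisense RNA *Gm15441*, which spans the gene and shares 606 exonic bases with it. *Gm15441* held 339 counts over all 24 libraries. The other partners held 2208 (*Psmc3ip*, opposite *Mlx*), 782 (*Gm16537*, opposite *Gpd1*), 328 (*Hcn3*, opposite *Pklr*), 2 (*Gm15747*, opposite *Mlxip*) and 0 (*Gm43500*, opposite *Mlxipl*). Whether the counting used strand is not stated, and without strand the reads of such a pair cannot be told apart. *Arrdc4*, *Klf10* and *Khk* overlapped no other annotated gene.

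The promoter windows below show where letters of the response element stand in these genes. They were read from RefSeq promoters on GRCm38.p6, which run from 250 bases before to 50 bases after each annotated start and held 7 of the 9 genes. Both strands were searched for the paired element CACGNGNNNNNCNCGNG and for the E-box CACGTG, which is the same on both strands. The paired element was in 120 of 32851 windows (0.365%) and the E-box in 2349 (7.15%). The paired element was in the *Pklr* window of the downstream of its 2 starts, where the glucose response element of the liver enzyme is known to lie, and in that of *Txnip*. The E-box was in the windows of *Khk*, *Mlxipl*, *Arrdc4* and *Mlx*, and neither was in that of *Mlxip*. Capitals mark the matched letters, and each sequence is given 5′ to 3′ in the direction of its gene with 25 bases on each side.
*Pklr*, chr3:89136428-89136494, + strand: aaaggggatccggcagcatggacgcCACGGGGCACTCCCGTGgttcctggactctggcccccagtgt
*Txnip*, chr3:96557847-96557913, + strand: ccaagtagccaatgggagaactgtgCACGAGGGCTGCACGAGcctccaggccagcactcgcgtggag
*Khk*, chr5:30921463-30921518, + strand: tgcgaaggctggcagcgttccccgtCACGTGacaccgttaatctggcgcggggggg
*Mlxipl*, chr5:135089767-135089822, + strand: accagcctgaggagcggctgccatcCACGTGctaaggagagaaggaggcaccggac
*Arrdc4*, chr7:68749401-68749456, - strand: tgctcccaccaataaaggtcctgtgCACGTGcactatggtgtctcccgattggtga
*Mlx*, chr11:101087225-101087280, + strand: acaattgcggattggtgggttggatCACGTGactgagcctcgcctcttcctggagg
A match describes letters in a window, and binding was not measured.

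Across the 24 libraries the 9 genes covered a wide range of counts. *Txnip* had 1299 to 3851 counts per library, *Gpd1* 800 to 1676, *Khk* 262 to 665, *Klf10* 284 to 643 and *Pklr* 225 to 464. *Mlx* had 117 to 271 and *Mlxip* 119 to 243, whereas *Mlxipl* had 12 to 89 and *Arrdc4* 0 to 16. The scale is counts of 3′ ends, and the genes are ordered by how many counts support each value. Abundance was not compared between genes. *Mlxipl* showed a different order over the groups from its partners. Its mean normalized count fell in the order BSA, CON, BMAL1, PAL, CHREBP and BOTH, from 59.8 to 17.04, while the group means of *Mlx* stayed between 177 and 188 and those of *Mlxip* between 137 and 180.

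**Figure D1:**
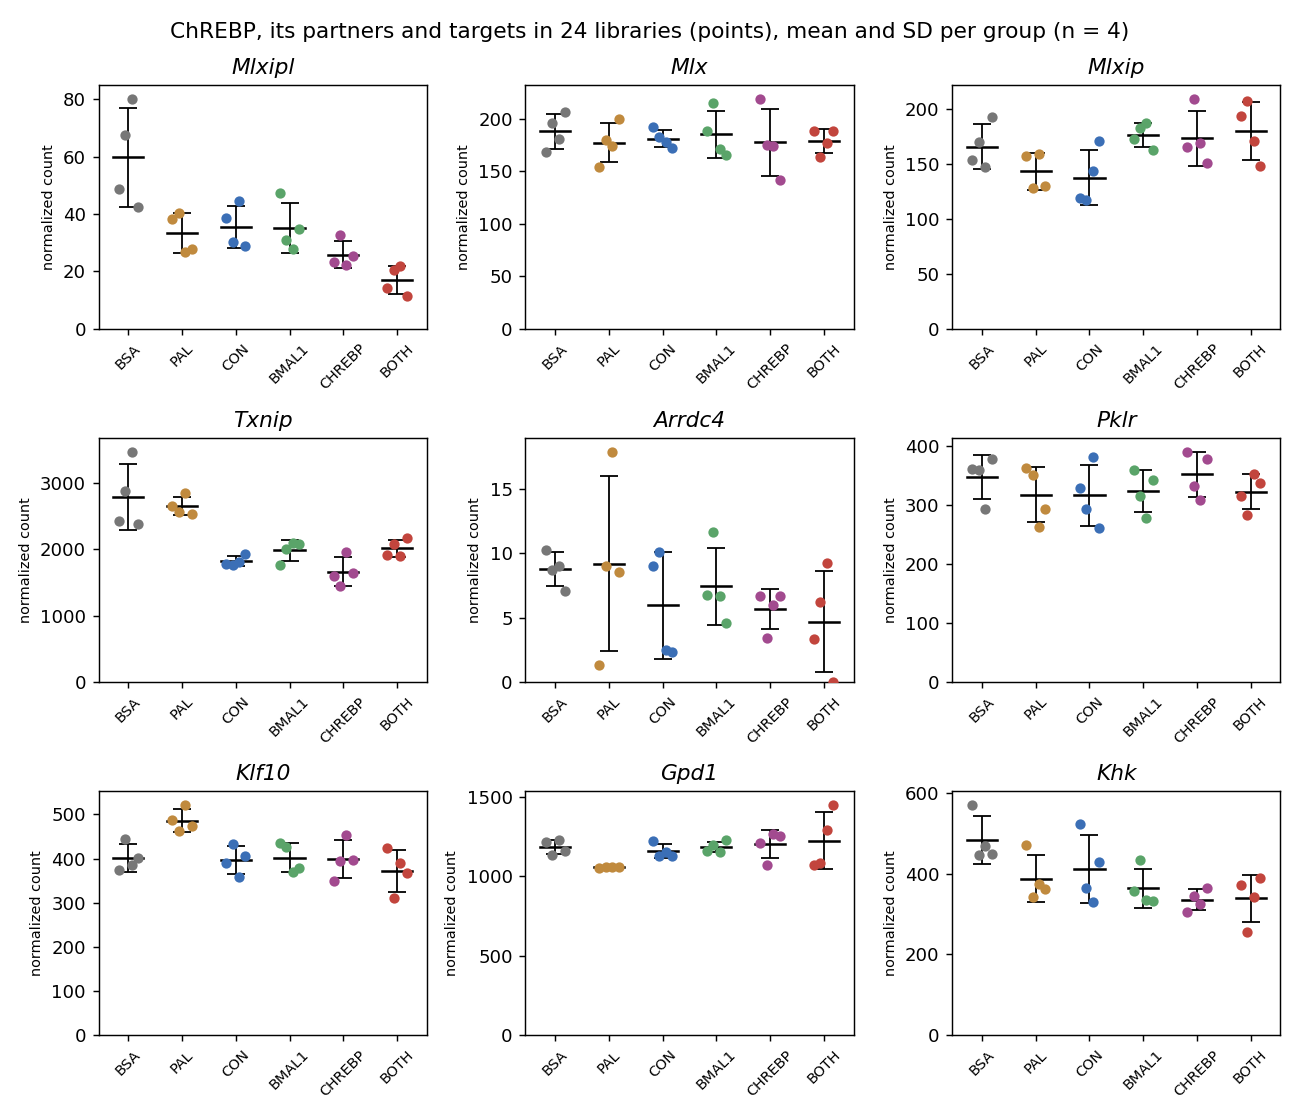
Normalized counts of the 9 genes (vertical axes, each from 0 and with its own range) in the 6 groups (horizontal axes). Points are libraries in the order of their replicate numbers, and black lines and bars give the mean and SD of 4 libraries. All 16 transfected libraries lie below all 8 untransfected libraries for *Txnip*, the 4 PAL libraries stand above all others for *Klf10*, and *Mlx* is level.

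PAL was compared with BSA to ask what palmitate did to these genes. *Mlxipl*, *Khk* and *Gpd1* fell with palmitate and *Klf10* rose. DESeq2 (adjusted p, *Padj*, under 0.1) called these 4 of 9 genes, beside 14.3% of all genes tested, and 3 of the 9 did not overlap between the groups, beside 15.1%. The median log2 fold change of the 9 was -0.13, against 0.00480 for all genes tested.

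*Mlxipl* was at 48.8, 67.7, 80.3 and 42.4 normalized counts in BSA and at 38.3, 40.2, 26.8 and 27.99 in PAL. Every PAL library was below every BSA library, but the highest PAL value was only slightly below the lowest BSA value. Its level fell by 44.8% (log2 fold change -0.86, SE 0.27, *Padj* = 0.0173), and the call was lost without BSA replicate 3 (log2 fold change -0.68, *Padj* = 0.141). *Mlx* was at 168.7, 196.3, 181.2 and 206.5 in BSA and 154.5, 180.1, 174.4 and 199.8 in PAL, and the groups overlapped. Its interval for the log2 fold change ran from -0.32 to 0.19. *Mlxip* had a log2 fold change of -0.20 (95% interval -0.48 to 0.08, *Padj* = 0.456). Of the factor and its partners, then, *Mlxipl* alone passed the test.

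*Khk*, the ketohexokinase that begins fructose breakdown, was at 569.5, 444.9, 468.0 and 448.4 in BSA and 471.3, 342.0, 374.6 and 362.3 in PAL. PAL replicate 1 lay within the BSA range and the other 3 PAL libraries lay below it. The log2 fold change was -0.32 (SE 0.11, *Padj* = 0.0390). The call was lost with all 24 libraries in one fit (*Padj* = 0.116), without BSA replicate 1 (0.265) and without PAL replicate 2 (0.158), 3 (0.117) or 4 (0.149). *Gpd1*, the cytosolic glycerol 3-phosphate dehydrogenase that links glycolysis to triglyceride synthesis, was at 1215, 1133, 1229 and 1161 in BSA and 1056, 1057, 1060 and 1060 in PAL. The 4 PAL libraries were lower than all BSA libraries and nearly equal to each other (SD 1.88). At 800 to 1363 counts per library, counting noise alone usually gives a wider spread, so this SD does not measure how much such cells vary. The log2 fold change was small, -0.16 (SE 0.06, *Padj* = 0.0888), and the call was lost with all 24 libraries in one fit (*Padj* = 0.177). With 1 library left out it was kept only without BSA replicate 2. Without each of the other 7 libraries in turn *Padj* lay between 0.126 and 0.252.

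*Klf10*, a zinc finger repressor induced by CHREBP and by TGF-β, moved the other way. It was at 373.4, 444.9, 385.0 and 401.8 in BSA and 487.1, 462.7, 521.1 and 472.6 in PAL, with no overlap. The rise of 21.6% (log2 fold change 0.28, SE 0.09, *Padj* = 0.0226) lost its call without BSA replicate 1 (*Padj* = 0.126) and without PAL replicate 3 (0.116), and kept it without each other library. *Txnip* did not pass the test, with 2436, 2876, 3472 and 2388 in BSA and 2656, 2572, 2846 and 2542 in PAL, a log2 fold change of -0.07 (95% interval -0.25 to 0.11). Nor did *Pklr*, the liver pyruvate kinase at the end of glycolysis, which was at 360.6, 359.7, 293.1 and 377.7 in BSA and 361.7, 351.1, 262.8 and 293.8 in PAL. Its interval ran from -0.36 to 0.10. *Arrdc4* had 5 to 12 counts in BSA and 1 to 16 in PAL. Its interval, -1.06 to 1.21, held no change as well as a 2-fold change in either direction, so it was not informative at this depth.

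Among 26 other genes known as CHREBP targets in liver, 18 were tested and 3 rose and 3 fell with palmitate, beside 14.3% called among all genes, with a median log2 fold change of -0.02. The risers were the fatty acid elongase *Elovl6* (0.54, *Padj* = 0.000314), the desaturase *Scd1* (0.41, *Padj* = 0.0598) and malic enzyme *Me1* (0.31, *Padj* = 1.29e-06). Among the fallers were the triglyceride synthesis enzyme *Dgat2* (-0.96, *Padj* = 7.32e-13) and the lipoprotein lipase regulator *Angptl8* (-0.92, *Padj* = 0.000124). The enzymes that act beside *Khk* and *Gpd1* were tested as a list of 10 genes, of which 9 were tested and 2 fell, beside 14.3% called among all genes. Among them was *Sord*, sorbitol dehydrogenase, which makes fructose (-0.93, *Padj* = 7.80e-09). In the list of 15 glucose transporters, hexokinases and genes of glucose 6-phosphate, 9 were tested and 0 were called by DESeq2 or edgeR. The 1 gene of the list with an unadjusted p under 0.05 was *G6pdx*, glucose 6-phosphate dehydrogenase, at a log2 fold change of -0.27 (*Padj* = 0.125).

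The hepatocyte markers, a list of 12 genes, summed to 1677 to 1950 CPM in BSA and 1270 to 1440 CPM in PAL, and the 6 bile duct markers to 2438 to 2627 and 2091 to 2226 CPM. The 6 immune markers summed to 114 to 124 CPM in BSA and 74.4 to 86.4 in PAL, nearly all of it *Cd14*, while *Adgre1* and *Clec4f* had 0 counts in every library and *Ptprc* at most 0.864 CPM. All 3 sums were thus lower in every PAL library than in any BSA library, and their part in the results above was not tested. Single genes weighed heavily in them, with medians over all libraries of 821 CPM for *Trf* and 1218 CPM for the bile duct marker *Spp1*. The sums do not stand for each marker, and *Hnf4a* had a log2 fold change of 0.10 by DESeq2 (*Padj* = 0.353). In bulk samples, fewer cells of a type and less RNA per cell cannot be told apart.

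CON was compared with PAL to show what transfection with a control esiRNA did under palmitate. *Txnip* fell. It was at 2656, 2572, 2846 and 2542 normalized counts in PAL and at 1773, 1771, 1815 and 1926 in CON, with no overlap and a gap far wider than the spread within either group. Its level fell by 31.5% (log2 fold change -0.55, SE 0.06, *Padj* = 3.35e-18), and *Txnip* had the smallest p of the 12928 genes tested. Without each library in turn the log2 fold change lay between -0.57 and -0.51. DESeq2 called 2 of the 9 genes, beside 2.51% of all genes.

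The other was *Klf10*, at 388.7, 433.6, 357.0 and 404.6 in CON, below the 462.7 to 521.1 of PAL. CON replicate 3 was lower than every BSA library and the other 3 lay within the BSA range. The log2 fold change was -0.30 (SE 0.09, *Padj* = 0.0461). The call was kept without PAL replicate 2 or CON replicate 2, and was lost without PAL replicate 1, 3 or 4 or CON replicate 1, 3 or 4 (*Padj* 0.108 to 0.321) and with all 24 libraries in one fit (0.116). *Gpd1* was at 1223, 1130, 1156 and 1127 in CON, above all PAL libraries, but did not pass the test (log2 fold change 0.13, *Padj* = 0.401). It was 1 of 3 genes of the 9 that did not overlap, beside 7.16% of all genes. *Mlxipl* was at 38.6, 30.3, 44.4 and 29.0 in CON, overlapping PAL, with an interval of -0.44 to 0.65. *Pklr*, *Mlx*, *Mlxip* and *Khk* had log2 fold changes between -0.07 and 0.08.

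The level of *Txnip* was lower in every transfected group than in either untransfected one. Its lowest value in the 8 untransfected libraries was 2388 and its highest in the 16 transfected libraries was 2173. Of 14511 genes with 25 or more counts over all libraries, 7 (0.0482%) were lower in all 16 than in all 8. This split was looked for after the values of *Txnip* were seen, and it is described without a test. None of the other 8 genes was separated in this way. The 3 other alpha-arrestins that were tested, *Arrdc1*, *Arrdc2* and *Arrdc3*, were not called by DESeq2 or edgeR in CON against PAL or in any other comparison, and 1 had an unadjusted p under 0.05, in BOTH against CON. Over the comparisons DESeq2 called 0.49% to 14.3% of all genes. *Arrdc3* had a log2 fold change of 0.37 in CON against PAL (95% interval -0.04 to 0.77). Thioredoxin and its reductase, the partners of the *Txnip* protein, gave 0 calls among 4 genes by DESeq2 or edgeR in CON against PAL. The 2 with an unadjusted p under 0.05 were *Txn1* at 0.11 and *Txnrd1* at -0.17 (*Padj* = 0.324 for each). Of the 18 other CHREBP targets tested 2 rose, among them *Dgat2* (0.53, *Padj* = 0.00320), and 0 fell, beside 2.51% called among all genes. The interferon score was 2.98 to 3.56 in PAL and 4.65 to 7.63 in CON, and its part in these differences was not tested.

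BMAL1 was compared with CON to ask what *Bmal1* esiRNA did to the CHREBP genes. DESeq2 called 0 of the 9, beside 0.49% of all genes tested, and 1 had an unadjusted p under 0.05. edgeR also called 0, and *Mlxipl* and *Arrdc4* were left without a *Padj* by DESeq2. The gene with the low p was *Mlxip*, at 118.5, 117.3, 143.1 and 170.4 in CON and 172.4, 182.7, 186.7 and 162.7 in BMAL1. Only the lowest BMAL1 library fell inside the CON range, and the log2 fold change was 0.37 (SE 0.15, *Padj* = 0.419). *Txnip* was at 1763, 2000, 2093 and 2080 in BMAL1, with an interval of -0.04 to 0.29, and *Khk* at 355.7, 432.4, 333.3 and 331.7, with an interval of -0.45 to 0.10. *Mlxipl* was at 47.5, 30.8, 27.8 and 34.7, and its interval, -0.57 to 0.50, was wide. *Mlx*, *Pklr*, *Klf10* and *Gpd1* had log2 fold changes of 0.02 to 0.03. Among the 19 other CHREBP targets tested 0 were called by DESeq2 or edgeR and 0 had an unadjusted p under 0.05. The smallest p was that of *Me1* (log2 fold change -0.10, *Padj* = 0.776).

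CHREBP was compared with CON to ask what *Chrebp* esiRNA did. The targeted transcript *Mlxipl* was at 23.3, 32.7, 22.1 and 25.5 in CHREBP, beside 38.6, 30.3, 44.4 and 29.0 in CON. The means differed but CHREBP replicate 2 lay inside the CON range, and the fall was not past the test (log2 fold change -0.46, SE 0.28, *Padj* = 0.593). The interval ran from -1.01 to 0.09, so that at 21 to 54 counts per library neither a halving nor no change was outside it. DESeq2 and edgeR called 0 of the 9 genes, beside 3.42% of all genes tested with DESeq2, and 2 had an unadjusted p under 0.05. Their median log2 fold change was -0.03.

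The partners and targets showed no common direction. *Mlxip* was at 165.0, 209.2, 168.5 and 150.6 in CHREBP, mostly in or above the upper CON range (log2 fold change 0.35, *Padj* = 0.249), and was called without CON replicate 4 (0.46, *Padj* = 0.0848). *Khk* was at 521.6, 364.8, 329.0 and 429.0 in CON and 304.6, 345.2, 325.0 and 364.4 in CHREBP, with overlap (-0.30, *Padj* = 0.365). *Txnip* was at 1595, 1447, 1965 and 1647 in CHREBP, where replicate 3 was above all CON libraries and the others below. Its log2 fold change was -0.13 (95% interval -0.30 to 0.03). *Pklr*, the classical CHREBP target, was at 329.5, 292.7, 381.7 and 260.9 in CON and 389.8, 331.4, 308.9 and 377.7 in CHREBP, with an interval of -0.09 to 0.38. *Klf10* and *Gpd1* had log2 fold changes of 0.01 and 0.05, with intervals from -0.20 to 0.22 and -0.12 to 0.22.

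Of the 19 other CHREBP targets tested, 2 fell and 0 rose in CHREBP against CON, beside 3.42% called among all genes, with a median log2 fold change of -0.16 against -0.00365 for all genes. *Scd1* was the stronger of them (-0.67, SE 0.15, *Padj* = 0.00106), with means of 180.1 in CON and 113.1 in CHREBP. *Tm6sf2*, which is needed for lipid loading of lipoproteins, had means of 39.97 and 22.2 (-0.84, *Padj* = 0.0548). The lipogenic enzymes *Acly*, *Fasn* and *Acaca* were at -0.01, -0.09 and -0.16 and did not pass the test. *Pnpla3* and *Gckr* had 0 counts in every library, and *Thrsp*, *G6pc*, *Rgs16*, *Fgf21* and *Acacb* had at most 6.

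**Figure D2:**
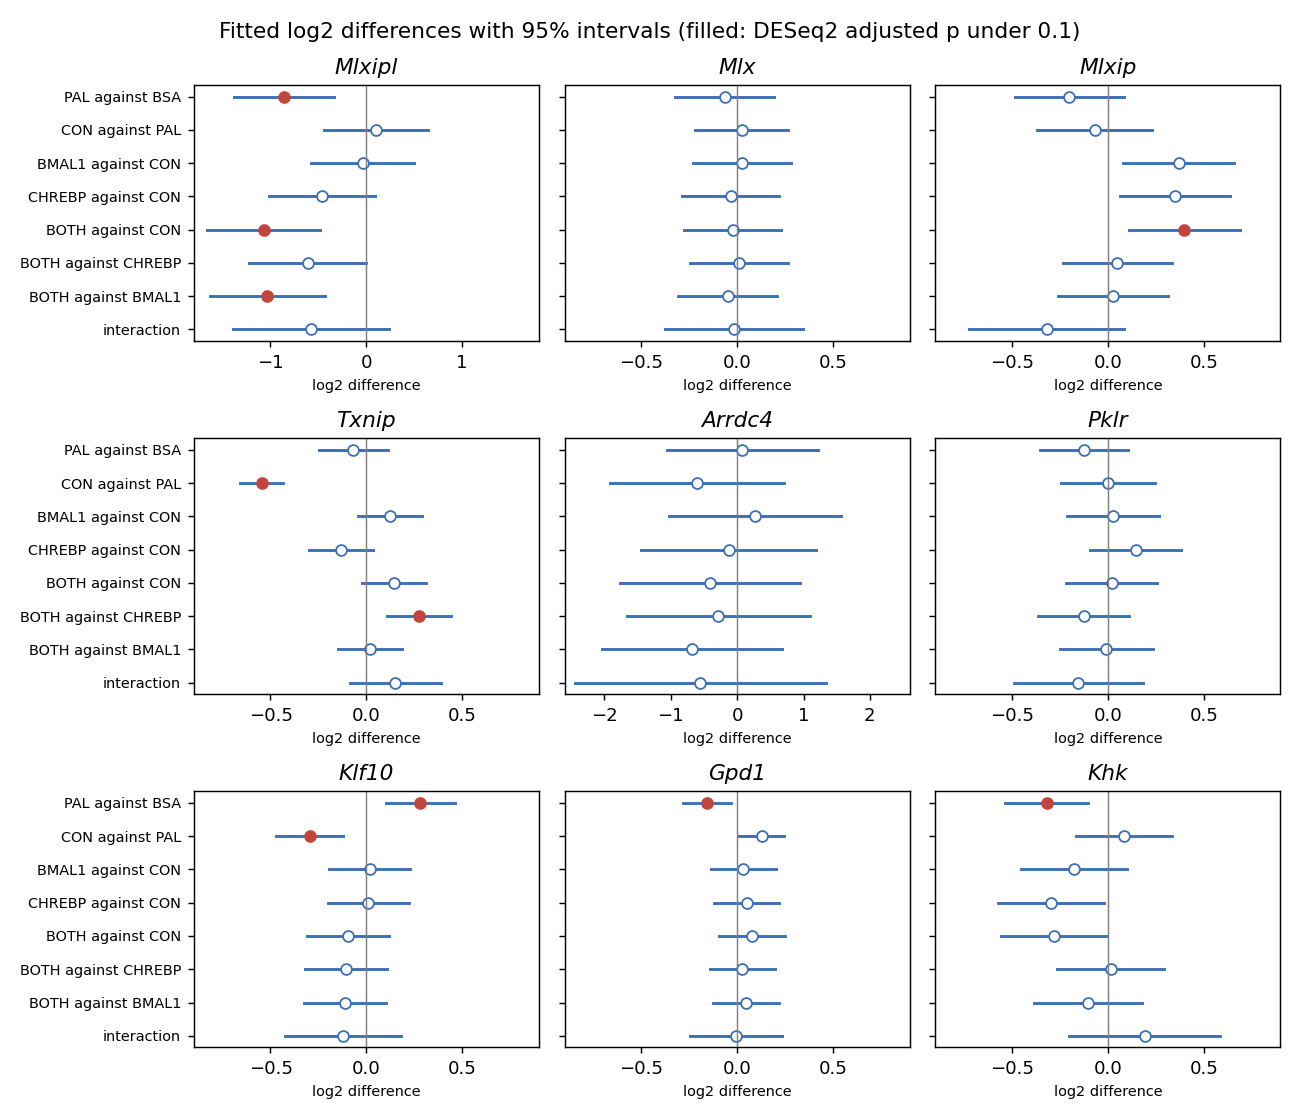
Fitted log2 differences (horizontal axes, first group minus second; wider ranges for *Mlxipl* and *Arrdc4*) of the 9 genes in 7 comparisons and the interaction. Bars are 95% intervals and filled points passed DESeq2 at *Padj* under 0.1. *Txnip* in CON against PAL, at -0.55, has an interval far from 0, and *Mlxipl* is lower by over 1 log2 unit in BOTH against CON and against BMAL1.

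BOTH was compared with CON, CHREBP and BMAL1 to ask whether the 2 esiRNAs together differed from each alone. *Mlxipl* was at 14.4, 20.3, 21.9 and 11.5 in BOTH, lower than in every library of all other groups. Against CON it fell by 52.4% (log2 fold change -1.07, SE 0.30, *Padj* = 0.00762), and against BMAL1 the log2 fold change was -1.04 (SE 0.31, *Padj* = 0.0121). Both calls held without each library in turn. Against CHREBP, which also received *Chrebp* esiRNA, the groups were separated by little, with the highest BOTH library at 21.9 and the lowest CHREBP library at 22.1. That difference was -0.61 (95% interval -1.22 to 0.0004), and DESeq2 gave no *Padj*, since it left the gene out for its low mean count. Of the 9 genes *Mlxipl* was the 1 that did not overlap in each of the 3 comparisons, beside 10.9% of all genes against CON, 11.3% against BMAL1 and 3.41% against CHREBP.

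DESeq2 called 2 of the 9 in BOTH against CON, beside 9.73% of all genes, 1 of 9 in BOTH against BMAL1, beside 10.4%, and 1 of 9 in BOTH against CHREBP, beside 0.994%. The second call against CON was *Mlxip*, at 193.6, 206.8, 170.9 and 147.9 in BOTH, with overlap (log2 fold change 0.40, SE 0.15, *Padj* = 0.0768). It was lost without CON replicate 1, 2 or 3 or BOTH replicate 1 or 2 (*Padj* 0.118 to 0.265), with CON and BOTH fitted alone (0.178) and in edgeR with DESeq2's size factors (0.103). *Mlxip* therefore had positive log2 fold changes in all 3 esiRNA groups against the same CON libraries, 0.37, 0.35 and 0.40, and the CON group held its lowest mean (137.3). Because the 3 comparisons share CON, they are not independent.

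The call against CHREBP was *Txnip*, at 1918, 2074, 1900 and 2173 in BOTH against 1595, 1447, 1965 and 1647 in CHREBP. CHREBP replicate 3 lay within the BOTH range and the other 3 CHREBP libraries below it. The log2 fold change was 0.28 (SE 0.08, *Padj* = 0.0853). It was lost without CON replicate 1, BMAL1 replicate 4, CHREBP replicate 1, 2 or 4 or BOTH replicate 2, 3 or 4 (*Padj* 0.103 to 0.366), and edgeR did not call it (0.196). Against CON *Txnip* had a log2 fold change of 0.15 (95% interval -0.02 to 0.31). *Khk* was at 370.6, 255.4, 340.7 and 387.9 in BOTH, with -0.28 against CON (*Padj* = 0.265) and 0.01 against CHREBP.

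*Pklr* in BOTH was at 315.3, 283.7, 352.3 and 337.0, a log2 fold change of 0.02 over CON (95% interval -0.22 to 0.26). *Gpd1* was at 1074, 1086, 1290 and 1450, where replicates 1 and 2 were at the low end of all groups and replicate 4 was the highest of the 24 libraries. Its interval against CON ran from -0.09 to 0.25. *Klf10* was at 423.7, 310.2, 389.2 and 366.8, with an interval of -0.31 to 0.12. *Arrdc4* had 3, 7, 8 and 0 counts, where the count of 0 allows up to 3, and no comparison of it was informative at this depth.

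Of the other CHREBP targets, 3 of 19 fell in BOTH against CON and 0 rose, beside 9.73% called among all genes. *Elovl6* was at a mean of 142.8 against 237.9 (-0.75, *Padj* = 0.000282), the glucose and fructose transporter *Slc2a2* at 165.9 against 230.6 (-0.47, *Padj* = 0.00481) and *Scd1* at 133.9 against 180.1 (-0.43, *Padj* = 0.0597). In BOTH against BMAL1 the 1 call was *Elovl6* (-0.60, *Padj* = 0.00763), beside 10.4% of all genes. In BOTH against CHREBP 0 of 19 were called by DESeq2 or edgeR, beside 0.994% of all genes by DESeq2. The 1 with an unadjusted p under 0.05 was *Elovl6* (-0.40, *Padj* = 0.384). The median of the list was -0.14 in BOTH against CON, against -0.01 for all genes tested.

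**Figure D3:**
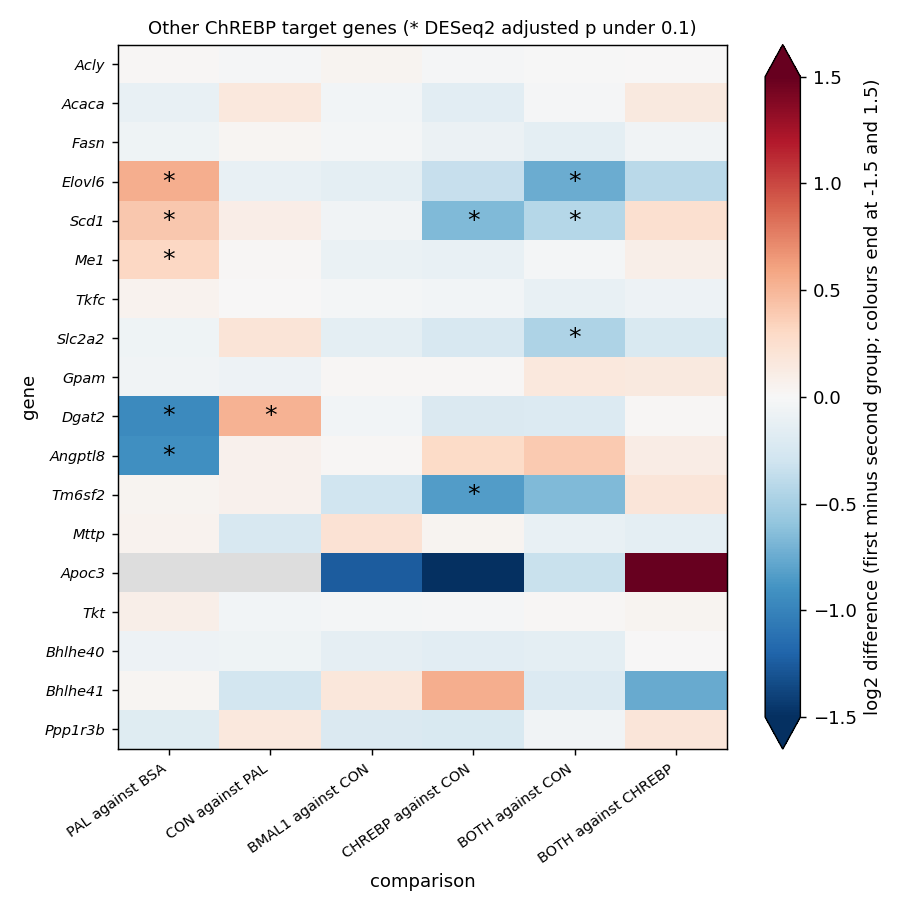
Fitted log2 differences (colour scale, ending at -1.5 and 1.5) of 18 of the 19 other CHREBP target genes that could be tested (vertical axis) in 6 comparisons (horizontal axis). Stars mark DESeq2 *Padj* under 0.1 and grey marks genes not tested in that fit. *Elovl6* and *Scd1* rose in PAL against BSA and fell in BOTH against CON, while *Apoc3*, with means of a few counts, has large values without a call.

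The interaction asked whether *Bmal1* esiRNA acted differently with *Chrebp* esiRNA than without it. Total esiRNA dose fell from CON to BMAL1 and rose from CHREBP to BOTH, so dose and interaction cannot be told apart. By DESeq2 0 of the 9 genes passed, beside 1.47% of all genes, none had an unadjusted p under 0.05, and edgeR called 0. DESeq2 gave no *Padj* for *Mlxipl* and *Arrdc4* there, so 7 of the 9 could pass. The widest informative value was that of *Mlxipl*, -0.58 (95% interval -1.39 to 0.24), and the difference between its falls with and without *Bmal1* esiRNA was thus not detectable at this depth. A likelihood ratio test over the 4 transfected groups called 2 of 9, beside 9.92% of all genes. These were *Mlxipl* (*Padj* = 0.0191) and *Txnip* (*Padj* = 0.0465). Without BMAL1 replicate 4 or CHREBP replicate 1, 2 or 4 only 1 of the 9 passed.

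Relatives of MLX in the MAX network, which bind E-boxes as dimers, were tested as a list of 10 genes. In BMAL1 against CON 0 were called by DESeq2 or edgeR, beside 0.49% of all genes by DESeq2, and 0 had an unadjusted p under 0.05. *Myc*, the growth-promoting partner of MAX, rose in CHREBP against CON (0.29, *Padj* = 0.000132), where it was the 1 call of 10 beside 3.42% of all genes, and in BOTH against CON (0.51, *Padj* = 6.58e-15), CHREBP (0.22, *Padj* = 0.0409, edgeR 0.170) and BMAL1 (0.54, *Padj* = 1.96e-17). Among the transfected groups its mean normalized count was highest in BOTH (3529), followed by CHREBP (3037), CON (2480) and BMAL1 (2415). It was 2613 in BSA and 2542 in PAL. *Max* was at a mean of 113.6 in CON and 181.0 in BOTH (0.67, *Padj* = 0.00145), and at 128.0 in BSA and 170.3 in PAL (0.42, *Padj* = 0.0994). It fell in CON against PAL (-0.59, *Padj* = 0.00988). *Mxd3*, which opposes MYC, fell in BOTH against BMAL1 (-0.92, *Padj* = 0.0581), and *Mycl* fell in PAL against BSA from a mean of 7.79 to 1.19 (*Padj* = 0.0407).

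Factors that act on *Mlxipl* or with its protein were tested as a list of 12. *Hnf4a*, the hepatocyte nuclear receptor, was lower in BOTH than in CON (-0.17, *Padj* = 0.0794, edgeR 0.126) and BMAL1 (-0.18, *Padj* = 0.0455). The phosphatase subunit *Ppp2ca* rose in BOTH against BMAL1 (0.13, *Padj* = 0.0854, edgeR 0.141). With palmitate the exportin *Xpo1*, which carries CHREBP out of the nucleus, rose (0.28, *Padj* = 0.0237) and *Rxra*, the partner of LXR, fell (-0.28, *Padj* = 0.0593). In CON against PAL, BMAL1 against CON, CHREBP against CON and BOTH against CHREBP 0 of the 12 were called by DESeq2 or edgeR, and 1, 0, 1 and 0 had an unadjusted p under 0.05. The shares of all genes called there by DESeq2 were 2.51%, 0.49%, 3.42% and 0.994%. In the list of sugar entry genes *Hk1*, a hexokinase, rose (0.34, *Padj* = 0.0115) and *Slc2a2* fell in BOTH against CON. Among all genes 9.73% were called there. Both also passed the likelihood ratio test by DESeq2 (*Padj* = 0.0765 and 0.0356, edgeR 0.132 for *Hk1*), beside 9.92%. By DESeq2 or edgeR, 0 were called in BMAL1 or CHREBP against CON, in BOTH against CHREBP or BMAL1, or in the interaction. There 1, 1, 1, 2 and 1 had an unadjusted p under 0.05, and DESeq2 called 0.49%, 3.42%, 0.994%, 10.4% and 1.47% of all genes. *Akr1b3*, the aldose reductase that makes sorbitol, rose in BOTH against CON (0.52, *Padj* = 0.0896, edgeR 0.109) and BMAL1 (0.54, *Padj* = 0.0731).

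The interferon genes moved with every difference between the *Chrebp* esiRNA groups and CON or BMAL1. All 16 were higher in CHREBP and in BOTH than in CON by DESeq2, with median log2 fold changes of 2.65 and 3.47, while 8 were lower in BMAL1 by DESeq2 and 4 by edgeR. Against CON, DESeq2 called 3.42% of all genes in CHREBP, 9.73% in BOTH and 0.49% in BMAL1. In BOTH against CHREBP 0 of 16 were called by DESeq2, beside 0.994% of all genes, and 1 by edgeR, with 5 at an unadjusted p under 0.05. The hepatocyte markers summed to 1373 to 1465 CPM in CON, 1185 to 1306 in CHREBP and 1111 to 1283 in BOTH. The part of either in the values of *Mlxipl* and its targets was not tested beyond the covariate fit given with the alternatives.

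For each of the 9 genes with a mean of at least 20 normalized counts, the genes whose log2 levels ran most alike over the 24 libraries were listed among 9379 candidates (9380 for *Mlxipl*) with a mean of at least 50. The values are descriptions, since libraries of a group share their treatment and the highest of many correlations is high by choice. *Mlxipl* ran most like *Slc16a12* (r = 0.86), *Gstm5* (0.81) and *Gpr85* (0.80). *Txnip* ran most like *Serpine2* (0.81), *Phf10* (0.80) and *Chmp2b* (0.78), and *Khk* most like *Ninj1* (0.82), *Tmem50b* (0.81) and *Slc39a4* (0.78). For *Klf10* the first was *Igfbp4* (0.77), for *Gpd1* *Tmem63a* (0.77), for *Mlxip* *Fos* (0.72), for *Pklr* *Fam53a* (0.69) and for *Mlx* *Taf13* (0.67). Among the 9 themselves, the highest r over 24 libraries was 0.48, for *Mlxipl* with *Khk*, and it was -0.21 once group means were removed. For *Mlxipl* with *Txnip* the values were 0.43 and -0.02.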

How the data were processed

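BRB-seq libraries were sequenced on an Illumina instrument. The authors demultiplexed the reads, aligned them to mm10 with STAR and deposited raw counts per gene from HTSeq (featureCounts is also named). Versions, annotation, strand and handling of molecular identifiers are not given in the sources used here. The 9 genes and all lists were chosen with earlier results of these data known. Named genes were the 9, up to 4 called genes of each other list by smallest adjusted p (or up to 2 with the smallest p where none was called), and for each of the 9 with a mean of at least 20 the 3 with the highest correlation. Further called genes of a list were chosen after their values were seen, and some list members are not reported here.

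Counts were tested with DESeq2 1.42.0 (Wald test, R 4.3.3) on genes whose counts summed to 25 or more, with Benjamini-Hochberg adjustment over all genes and a threshold of 0.1, after the study's methods. The 16 esiRNA libraries were fitted together, and PAL was fitted with BSA and with CON as 8 libraries each. Normalized counts were divided by size factors of all 24 libraries, and log2 fold changes came from the fits. Alternatives were edgeR 4.0.16, other filters and sample sets, an interferon covariate and leaving out each library. Scripts were tested on simulated data. Nothing in the labels says that replicates were separate cultures, so p-values measure the spread between these samples, which may be technical. The 36 pairs of replicates differed by more than counting noise (chi-square per degree of freedom 2.74 to 24.7). Limits from counts of 0 cover counting error only. Coordinates came from GENCODE M21.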

Additional observations from a re-analysis of the deposited data

How the results depend on the processing

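The fall of *Txnip* in CON against PAL kept its call in all alternatives (*Padj* 3.05e-20 to 5.20e-06), and *Mlxipl* kept its calls in BOTH against CON and BMAL1 in all but the fit with the interferon covariate, where its log2 fold changes were -1.21 (DESeq2 gave no *Padj*) and -1.22. Replicate numbers did not pair the libraries (mean correlation of same-numbered deviations -0.07 to 0.11 over comparisons). With them as a replicate block, 1 of the 9 genes, *Khk*, was called in PAL against BSA (*Mlxipl* 0.103, *Klf10* 0.112 and *Gpd1* 0.269 as *Padj*), 1 in CON against PAL (*Klf10* was lost) and 1 in BOTH against CON (*Mlxip* was lost), and *Arrdc4* reversed to -0.14 in PAL against BSA and 0.081 in CHREBP against CON. Fitting all 24 libraries called 2 in PAL against BSA (*Khk* and *Gpd1* were lost), 1 in CON against PAL (*Klf10* was lost), 0 in BOTH against CHREBP (*Txnip* was lost, *Padj* = 0.166) and 1 in the likelihood ratio test. edgeR called 0 in BOTH against CHREBP with either scaling, 1 in BOTH against CON with DESeq2's size factors (*Mlxip* was lost) and 1 in the likelihood ratio test with TMM. The pair of groups alone gave 1 in BOTH against CON (*Mlxip* was lost) and 0 in BOTH against CHREBP. *Pklr* in CON against PAL, at -0.00177, reversed to 0.0015 and 0.000803 with edgeR and 0.0011 with all libraries.

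The interferon score did not overlap between CON or BMAL1 and CHREBP or BOTH, so its covariate fit can hardly separate score and group. It called 1 gene in BMAL1 against CON (*Khk*, -0.49, *Padj* = 0.0612), 0 in BOTH against CON and CHREBP, 1 in the interaction (*Khk*, 0.70) and 1 in the likelihood ratio test. In BOTH against BMAL1 the called gene was *Khk*, reversed to 1.12, in place of *Mlxipl* (-1.22, *Padj* = 0.999). *Khk* also reversed in CHREBP (0.42) and BOTH (0.63) against CON, *Mlx* in CHREBP (0.019) and BOTH (0.043) against CON, BOTH against BMAL1 (0.042) and the interaction (0.023), and *Arrdc4* in CHREBP (0.24) and BOTH (0.064) against CON. *Klf10* reversed in BMAL1 (-0.058) and BOTH (0.10) against CON and BOTH against BMAL1 (0.16), *Gpd1* in BMAL1 against CON (-0.017) and the interaction (0.073), *Mlxipl* in BMAL1 against CON (0.014), *Mlxip* in BOTH against BMAL1 (-0.15) and *Pklr* in BOTH against CON (-0.11). The cause was not tested.

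Without each library in turn, called genes numbered 1 to 4 in PAL against BSA, 1 to 2 in CON against PAL, 0 to 1 in CHREBP against CON, 1 to 2 in BOTH against CON, 0 to 1 in BOTH against CHREBP and 1 to 3 in the likelihood ratio test. Signs turned only in log2 fold changes that were not called. These ran from -0.14 to 0.054 for *Txnip* and -0.42 to 0.40 for *Arrdc4* in PAL against BSA. In CON against PAL they were -0.024 to 0.21 for *Mlxipl*, -0.034 to 0.091 for *Mlx*, -0.18 to 0.0032 for *Mlxip*, -0.11 to 0.074 for *Pklr* and -0.053 to 0.19 for *Khk*. In BMAL1 against CON they were -0.20 to 0.091 for *Mlxipl*, -0.057 to 0.078 for *Mlx*, -0.034 to 0.67 for *Arrdc4*, -0.049 to 0.13 for *Pklr* and -0.031 to 0.066 for *Klf10*, and in CHREBP against CON -0.14 to 0.055 for *Mlx*, -0.39 to 0.28 for *Arrdc4* and -0.061 to 0.068 for *Klf10*. In BOTH against CON they were -0.048 to 0.021 for *Mlx*, -0.93 to 0.015 for *Arrdc4*, -0.058 to 0.12 for *Pklr* and -0.015 to 0.13 for *Gpd1*. In BOTH against CHREBP they were -0.079 to 0.12 for *Mlx*, -0.028 to 0.15 for *Mlxip*, -0.81 to 0.15 for *Arrdc4*, -0.064 to 0.083 for *Gpd1* and -0.059 to 0.13 for *Khk*. In BOTH against BMAL1 they were -0.10 to 0.034 for *Mlx*, -0.048 to 0.11 for *Mlxip*, -0.031 to 0.047 for *Txnip*, -0.076 to 0.050 for *Pklr*, -0.047 to 0.10 for *Gpd1* and -0.18 to 0.013 for *Khk*. In the interaction they were -0.10 to 0.093 for *Mlx* and -0.097 to 0.051 for *Gpd1*. *Arrdc4* and *Mlxipl* had the fewest counts of the 9 genes and the largest SE in every comparison. Over all genes, calls in PAL against BSA fell from 1828 to 1188 with the block, and in BMAL1 against CON from 68 to 14 with edgeR.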

Other observations

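Further lists held genes that act beside the targets. Of 11 genes of lower glycolysis and pyruvate use around *Pklr*, 2 rose in PAL against BSA and 0 fell, beside 14.3% called among all genes. They were *Pdha1*, a subunit of pyruvate dehydrogenase (0.31, DESeq2 *Padj* = 9.62e-05), and *Ldha*, lactate dehydrogenase A (0.21, *Padj* = 0.00123). The list gave 0 calls by DESeq2 or edgeR in every other comparison, with 2 genes at an unadjusted p under 0.05 in CON against PAL, 1 in BOTH against BMAL1 and 0 elsewhere. DESeq2 called 0.49% to 10.4% of all genes in those comparisons. Mitochondrial thioredoxin *Txn2*, of the 4 genes around TXNIP, rose in PAL against BSA (0.19, *Padj* = 0.0415) and in BOTH against BMAL1 (0.22, *Padj* = 0.00322).

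Components and early genes of TGF-β signaling, in which *Klf10* was first described, were a list of 10. In PAL against BSA, where 14.3% of all genes were called, 1 rose (*Smad2*, 0.26, *Padj* = 0.0681) and 3 fell, namely the ligand *Tgfb1* (-0.65, *Padj* = 6.78e-07), *Klf9* (-0.34, *Padj* = 0.0179) and the receptor *Tgfbr1* (-0.19, *Padj* = 0.0912), while *Klf10* itself rose. *Klf6*, a relative of *Klf10*, rose in BOTH against CON (0.39, *Padj* = 2.82e-06), CHREBP (0.23, *Padj* = 0.0925, edgeR 0.197) and BMAL1 (0.30, *Padj* = 0.000701). In BOTH against BMAL1 *Tgfbr2* also rose (0.28, *Padj* = 0.0687) and *Tgfb1* fell (-0.36, *Padj* = 0.0296). In CON against PAL, BMAL1 against CON and CHREBP against CON 0 of the 10 were called by DESeq2 or edgeR, and 0, 0 and 1 had an unadjusted p under 0.05. DESeq2 called 2.51%, 0.49% and 3.42% of all genes there.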
